A study of Homo sapiens with 13 samples.

Results

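The cells described here were tumour cells with counts in at least 5 of 8 genes of late cell cycle, taken from human breast cancer xenografts. The rule took cells with at least 2000 detected genes and 1 or more counts in at least 5 of TOP2A, MKI67, CCNB1, CDC20, PLK1, CENPF, UBE2C and AURKA, and found 1111 members among 1569 cells, so the members were selected on the counts of these 8 genes. Each tumour came from 1000000 BM1 cells (MDA-MB-231 breast cancer cells selected for growth in bone) injected into a mammary fat pad of an athymic nude mouse and left for 3 weeks. RKIP tumours (3) carried BM1-RKIP-S153E cells, which express the metastasis suppressor RKIP in its S153E form, here read through a rat Pebp1 transgene row. CTRL tumours (3) carried BM1-VC cells, the vector control, and the labels put 1 tumour of each arm in each of 3 replicate experiments. The labels do not say whether each BM1 line was 1 clone or a pool. Athymic nude mice lack mature T cells, so the host gives no T cell response. Tumours were dissociated and depleted of mouse and dead cells before capture on Fluidigm C1 HT chips, a microfluidic system that isolates single cells. The tumours are called A, B and C by their name endings, and the tumours with one ending were taken as one replicate experiment.

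Cells prepare for division in G2 and divide in mitosis. Cyclin B with the kinase CDK1 starts mitosis, kinetochores and spindle motors move the chromosomes, and the anaphase-promoting complex with CDC20 and the ubiquitin enzymes UBE2C and UBE2S ends it by marking cyclin B and securin for destruction. PLK1 and AURKA are kinases of the spindle poles, CENPF binds kinetochores, TOP2A untangles DNA, and MKI67 coats mitotic chromosomes and is the usual proliferation marker in breast cancer. MKI67 and TOP2A are known to be expressed already in S phase, whereas PLK1, CDC20, CCNB1 and AURKA peak in G2 and mitosis.

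The tumours held 19516061 to 34597649 counts and 247 to 274 cells each. A chip position names a cell, and 551 of 577 positions occurred in more than 1 library, so a name without its arm and ending does not identify a cell. CTRL cells came from chip columns 1 to 10 and RKIP cells from columns 11 to 20, so arm and chip position cannot be told apart. Of the marker genes of other cell types, 5 of 7 for leukocytes (PTPRC, CD68 and CD14 among them), 4 of 6 for fibroblasts (COL1A2, COL3A1, DCN and LUM), 2 of 5 for endothelium (CDH5 and VWF) and all 6 muscle and 3 erythroid genes had no row among the 15005 genes of the table, each counted in at least 20 cells. Those with a row summed, in the 276 member cells with the most marker counts, to 70.5 to 212 CPM (counts per 1000000 counts) for leukocytes, 0.937 to 48.4 CPM for endothelium and 0.158 to 6.56 CPM for fibroblasts. In the 276 with the fewest, the sums were 63.4 to 232, 8.601 to 46.4 and 1.49 to 14.1 CPM. All 6 genes of the tumour line list, VIM, CD44, KRT18, KRT8, S100A4 and LGALS1, had rows and together held 15575 to 22935 and 15598 to 21497 CPM in the same cells. In cells with at most 1 marker, 1 to 9 a tumour, the leukocyte, endothelial and fibroblast genes summed to 0 to 514, 0 to 526 and 0 to 118 CPM. The medians over tumours were 39.6, 11.3 and 0 CPM.

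Of the 1482 cells with at least 2000 detected genes, 74.97% were members, 341 cells had 2 to 4 of the markers and 30 had at most 1. Members were thus the majority of cells in every tumour, and the cells to set against them numbered 1 to 9 a tumour. The rule asks for a single count per gene, and members were the deeper cells, with a median of 91128 counts and 4544 genes, against 46642 counts and 3168 genes in cells with 2 to 4 markers and 38530.5 counts and 2813 genes in cells with at most 1. Just inside the threshold, 272 cells had 5 markers, with a median summed marker level of 676 CPM, and just outside it 162 cells had 4, with 474 CPM. The 176 cells with all 8 had a median of 6979 CPM. When each cell was thinned to 20000 counts, 53.7% of 1264 cells that still showed 2000 genes met the rule.

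**Figure D1:**
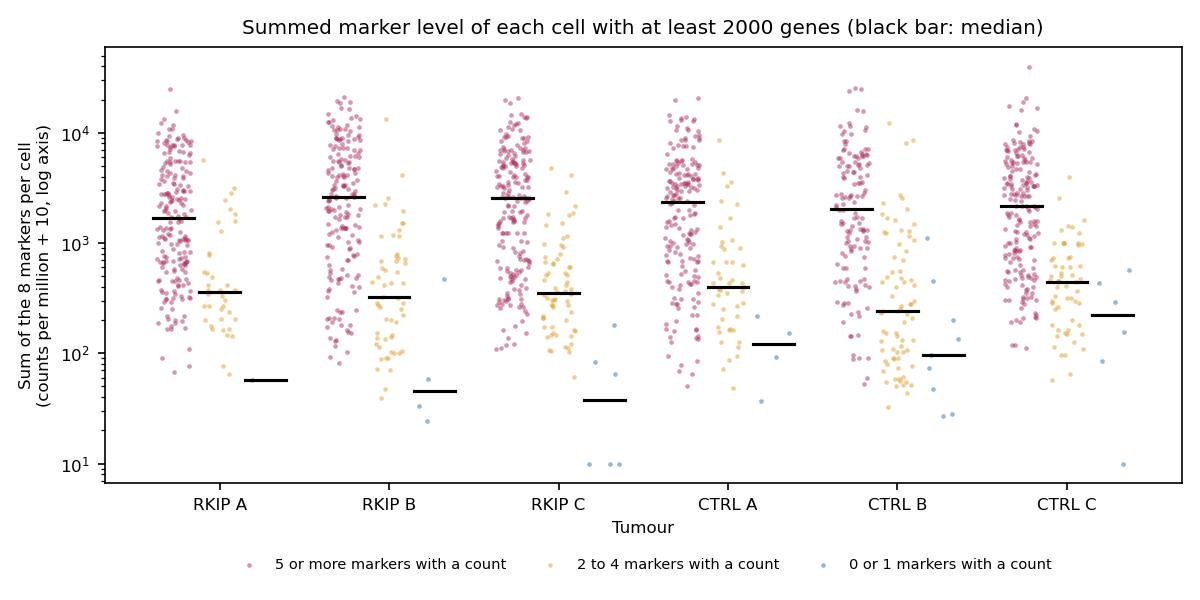
Summed level of the 8 markers in each cell with at least 2000 genes (CPM plus 10, log axis), by tumour and by the number of markers with a count; black bars are medians. Members spread over a wide range in each tumour, and the lower ones lie among the cells with 2 to 4 markers.

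Among members the 8 markers differed widely in level, which the following values describe without a test because the rule chose the cells on them. CENPF had a count in 98.5% of members, MKI67 in 97.7% and TOP2A in 97.4%, whereas CDC20 had one in 62.5% and PLK1 in 21.5%. Summed per tumour, members held 519 to 907 CPM of TOP2A, against 90.6 to 212 CPM in cells with 2 to 4 markers. For CDC20, the activator of the anaphase-promoting complex, members held 114 to 179.8 CPM, against 0.706 to 16.995 CPM. In the 30 cells with at most 1 marker, which the rule chose for low counts of these genes, CDC20, PLK1 and AURKA had no count. PLK1 was thus seen in few members, and CCNB1 and AURKA, with counts in 85.5% and 84.5% of them, in most.

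The members were then ordered within each tumour by summed marker CPM and split into marker-high, marker-middle and marker-low members. The first and the last class held 34 to 50 cells a tumour, 276 cells in all for each, and the middle class 70 to 102 cells a tumour. Marker-high members had a median summed marker level of 7953 CPM and marker-low members 311 CPM, close to the 349 CPM of non-members with 2 to 4 markers. Marker-low members met the rule at greater depth, with a median of 128588 counts a cell, against 90332 in marker-high members. After thinning to 20000 counts, PLK1 had a count in 31.2% of marker-high cells and 1.82% of marker-low cells, and CDC20 in 80.3% and 10.2%. The data therefore go against the name G2 or mitosis for the whole set, as marker-low members had marker levels close to those of non-members. Marker-high members were split off on these same markers, so their levels describe the split and do not test the name. Marker-low members are called here only by the rule.

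In each tumour, CCNB1, the mitotic cyclin, had 955, 1093 and 845 CPM in the RKIP tumours and 955, 1047 and 842 CPM in the CTRL tumours (order A, B, C) in marker-high members, against 23.5, 39.3 and 26.2 CPM in the RKIP tumours and 22.97, 25.8 and 46.05 CPM in the CTRL tumours in marker-low members. PLK1 had 92.1, 69.6 and 66.6 CPM in the RKIP tumours and 97.9, 124 and 23.9 CPM in the CTRL tumours in marker-high members, against 0.571, 0.121 and 1.24 CPM in the RKIP tumours and 0.134, 2.06 and 1.86 CPM in the CTRL tumours in marker-low members. The classes were split on these genes, so the gap is given as a description; within marker-high members, CTRL tumour C had the lowest PLK1 level. Across thinned member cells of a tumour (137 to 199 cells), the Spearman correlation of TOP2A with CENPF was 0.55 to 0.72. That of PLK1 with UBE2C was 0.015 to 0.42. These are descriptions across cells that share a library and, for PLK1, rest on counts near 0.

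The rule's own comparison set members against cells with at most 1 marker, on counts summed per tumour and class, with the 8 markers left out of the genes tested. With edgeR's quasi-likelihood test and Benjamini-Hochberg adjustment, 304 of 11232 genes were higher in members (2.71% of the genes tested) and 0 were lower (0% of the genes tested), with 2372 genes at an unadjusted p under 0.05 and 10 called lower by DESeq2. The median log2 fold change of all genes tested was 1.24 (0.96 with RLE size factors), so changes must be read relative to that value. Of the 304 genes, 216 had no count at all in the 30 comparison cells, against 694 of the 11232 genes tested. Such genes passed the filter on low counts through members alone and could only be called higher. Among them was CDCA8, a subunit of the chromosomal passenger complex, with 13847 counts in members and 0 in the comparison cells. It was at least 49.5-fold higher against a floor of 3 counts over the comparison cells, given here as a description. TPX2, the activator of AURKA, had 566, 778 and 503 CPM in the RKIP tumours and 498, 507 and 529 CPM in the CTRL tumours (order A, B, C) in members, against 0, 40.8 and 15.1 CPM in the RKIP tumours and 11.6, 93.3 and 51.3 CPM in the CTRL tumours in the comparison cells (log2 fold change 4.24 ± 0.58 (SE), adjusted p = 1.69e-09). DLGAP5, a spindle protein, had 248 to 413 CPM in members and 0 to 23.2 CPM in the comparison cells (5.11 ± 0.81 (SE), adjusted p = 9.78e-07). Both p-values rest on a spread pooled over genes, and little on how each gene varied between tumours. The other largest rises were ASPM, KIF2C, KIF15, SPAG5, CDCA5, CDK1, HJURP, ATAD5, NUSAP1 and CENPM, and each rested on 1 to 24 counts in the comparison cells. Leaving out any 1 tumour lowered the count to between 12 and 26 genes (12 without RKIP C, 15 without CTRL A, 18 without CTRL C, 20 without RKIP A, 23 without CTRL B and 26 without RKIP B), and cells of 30000 to 120000 counts gave 8.

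The contrast of marker-high members with marker-low members, added once the class sizes had been seen, rested on 34 to 50 cells a sum. With the tumour as a block, edgeR's quasi-likelihood test called 217 of 11355 genes higher (1.91% of the genes tested) and 76 lower (0.669% of the genes tested) in marker-high members after Benjamini-Hochberg adjustment, and the median log2 fold change of all genes was -0.031. Without CTRL A the counts were 154 higher and 22 lower, without RKIP C 160 and 26, and without the other tumours 161 to 209 higher and 29 to 54 lower. Genes of mitosis outside the rule led the rises. Of 84 tested genes in 4 mitotic lists (entry kinases and cyclins, kinetochore and checkpoint, spindle, and chromosomal passenger complex with cytokinesis), 65 were higher and 0 lower, with a median log2 fold change of 3.51. The 8 markers that split the cells are known to be expressed together with these genes, so the direction of these rises follows from the choice of cells. Their p-values, and classes that do not overlap, therefore describe the split and do not test the name G2 or mitosis. Marker-low members were the deeper ones, and the counts are therefore given also for thinned cells and for a window of depth. In cells of 30000 to 120000 counts, 6 of 15 entry, 10 of 27 kinetochore, 15 of 23 spindle and 11 of 15 passenger genes were higher. With cells thinned to 20000 counts, these were 8 of 15, 23 of 27, 19 of 20 and 13 of 15. Over all genes tested, 79 of 8670 were higher in the depth window and 228 of 7676 with thinned cells.

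At mitotic entry, CDK1 had 85.03, 156 and 196 CPM in the RKIP tumours and 159, 192 and 174 CPM in the CTRL tumours (order A, B, C) in marker-high members. In marker-low members it had 8.103, 5.09 and 5.99 CPM in the RKIP tumours and 4.14, 16.3 and 7.64 CPM in the CTRL tumours. The classes did not overlap, and the log2 fold change was 4.43 ± 0.35 (SE), adjusted p = 3.74e-05, n = 6 tumours by edgeR. CCNB2, a second mitotic cyclin, had 129 to 233 CPM in marker-high members and 4.33 to 22.2 CPM in marker-low members (log2 fold change 4.31 ± 0.36 (SE)), and CCNA2, the cyclin of S phase and G2, had 23.1 to 147 and 1.12 to 4.13 CPM (5.23 ± 0.38 (SE)). NEK2, a centrosome kinase, and CDC25C, the phosphatase that activates CDK1, were higher by 6.07 and 4.81 on the log2 scale. The call of CDC25C was lost without CTRL A, and NEK2 was too low to be tested in the depth window of 30000 to 120000 counts. In all, 8 of 16 genes of this list were higher and 0 lower. WEE1, the kinase that holds CDK1 inactive, had 91.5 ± 38.02 CPM in marker-high members and 89.5 ± 20.8 CPM in marker-low members (SD, n = 6), did not pass (log2 fold change -0.045, adjusted p = 0.968) and changed sign in 5 of the alternatives.

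Kinetochore and spindle checkpoint genes were higher for 22 of 29 tested, with a median log2 fold change of 3.24. In CTRL tumours alone 4 of 29 passed, and in RKIP tumours alone 6 of 29. Calls were fewer over all genes there, with 48 of 11513 higher in CTRL tumours alone and 68 of 12024 in RKIP tumours alone. NDC80, which links kinetochores to microtubules, had 231, 452 and 214 CPM in the RKIP tumours and 185, 140.3 and 179 CPM in the CTRL tumours in marker-high members. In marker-low members it had 8.902, 6.91 and 5.57 CPM in the RKIP tumours and 9.75, 4.303 and 6.15 CPM in the CTRL tumours (5.01 ± 0.28 (SE), adjusted p = 7.19e-06 by edgeR). Every marker-high value lay over 10 times above the highest marker-low value, and RKIP B was the highest. The checkpoint kinase BUB1 had 102 to 176 CPM in marker-high members and 1.698 to 18.6 CPM in marker-low members (4.80 ± 0.56 (SE)). The kinetochore motor CENPE had 409 to 717 and 25.3 to 58.6 CPM (3.61 ± 0.19 (SE)). The checkpoint protein MAD2L1 had 17.1 to 95.2 and 2.43 to 35.3 CPM (3.07 ± 0.53 (SE)), whose classes overlapped, and its call was lost without CTRL A and without RKIP C. CENPA, the histone of centromeres, was low in both classes, with 11.04 to 46.9 and 0 to 2.06 CPM.

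Spindle motors and microtubule proteins were higher for 22 of 24 tested. DLGAP5 had 699.8, 1012 and 1142 CPM in the RKIP tumours and 671, 671 and 619 CPM in the CTRL tumours in marker-high members. In marker-low members it had 13.9, 36.7 and 18.99 CPM in the RKIP tumours and 22.2, 14.4 and 18.6 CPM in the CTRL tumours (5.30 ± 0.19 (SE), adjusted p = 6.62e-07 by edgeR). TPX2 had 982 to 1961 and 43.5 to 225 CPM (3.91 ± 0.29 (SE)), and the motors KIF11, KIF20A and KIF2C were higher by 3.91, 5.49 and 4.87 on the log2 scale. In the depth window KIF11 and KIF20A did not pass (adjusted p = 0.0867 and 0.076). In the chromosomal passenger complex and cytokinesis list, 13 of 15 genes were higher, and the exceptions were the septins SEPT7 and SEPT9. CDCA8 had 247, 394 and 230.5 CPM in the RKIP tumours and 268, 279.5 and 178 CPM in the CTRL tumours in marker-high members. In marker-low members it had 4.11, 7.28 and 6.399 CPM in the RKIP tumours and 11.8, 7.48 and 2.24 CPM in the CTRL tumours (5.45 ± 0.29 (SE), adjusted p = 5.73e-06). Its partners AURKB and BIRC5 had 126 to 228 and 434 to 789 CPM in marker-high members, against 2.61 to 14.96 and 14.95 to 57.4 CPM in marker-low members. KIF23 and RACGAP1, which together build the midzone of the dividing cell, were higher by 5.26 and 4.998 on the log2 scale, and RACGAP1 did not pass in the depth window (3.15, adjusted p = 0.174). CDCA3, a regulator of mitotic entry, was higher by 6.74 ± 0.47 (SE).

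Of the anaphase-promoting complex list, only 3 of 18 genes passed, all higher. PTTG1, the securin that holds separase inactive, had 1332 ± 297 CPM in marker-high members and 179 ± 37.8 CPM in marker-low members (SD, n = 6; 2.89 ± 0.15 (SE), adjusted p = 5.73e-06), and FBXO5, an inhibitor of the complex, was higher by 3.55. The third was CDC27, a core subunit, with 251 ± 67.8 CPM in marker-high members and 135 ± 52.96 CPM in marker-low members (0.95 ± 0.17 (SE)). UBE2S, the enzyme that extends ubiquitin chains on the complex, had 20.7 ± 10.7 CPM in marker-high members and 5.59 ± 4.14 CPM in marker-low members and did not pass (adjusted p = 0.169). In the depth window 1 of 13 genes passed: CDC27 was at 0.33 (adjusted p = 0.861) and FBXO5 at 2.76 (adjusted p = 0.308), and neither call held without RKIP C, nor that of CDC27 without CTRL A. The median of the list was 0.39 on the log2 scale. Condensin and cohesin genes were higher for 10 of 19. The condensin subunits NCAPG, NCAPH and SMC4 rose by 4.29, 4.39 and 2.71, and the shugoshins SGO1 and SGO2, which protect cohesin at centromeres, rose by 4.24 and 3.78. In the depth window 7 of 19 condensin and cohesin genes passed, and NCAPH and SGO1 did not (adjusted p = 0.0671 and 0.372). The cohesin ring subunit SMC1A had 284 ± 129 CPM in marker-high members and 169.8 ± 39.1 CPM in marker-low members and did not pass (adjusted p = 0.0687).

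**Figure D2:**
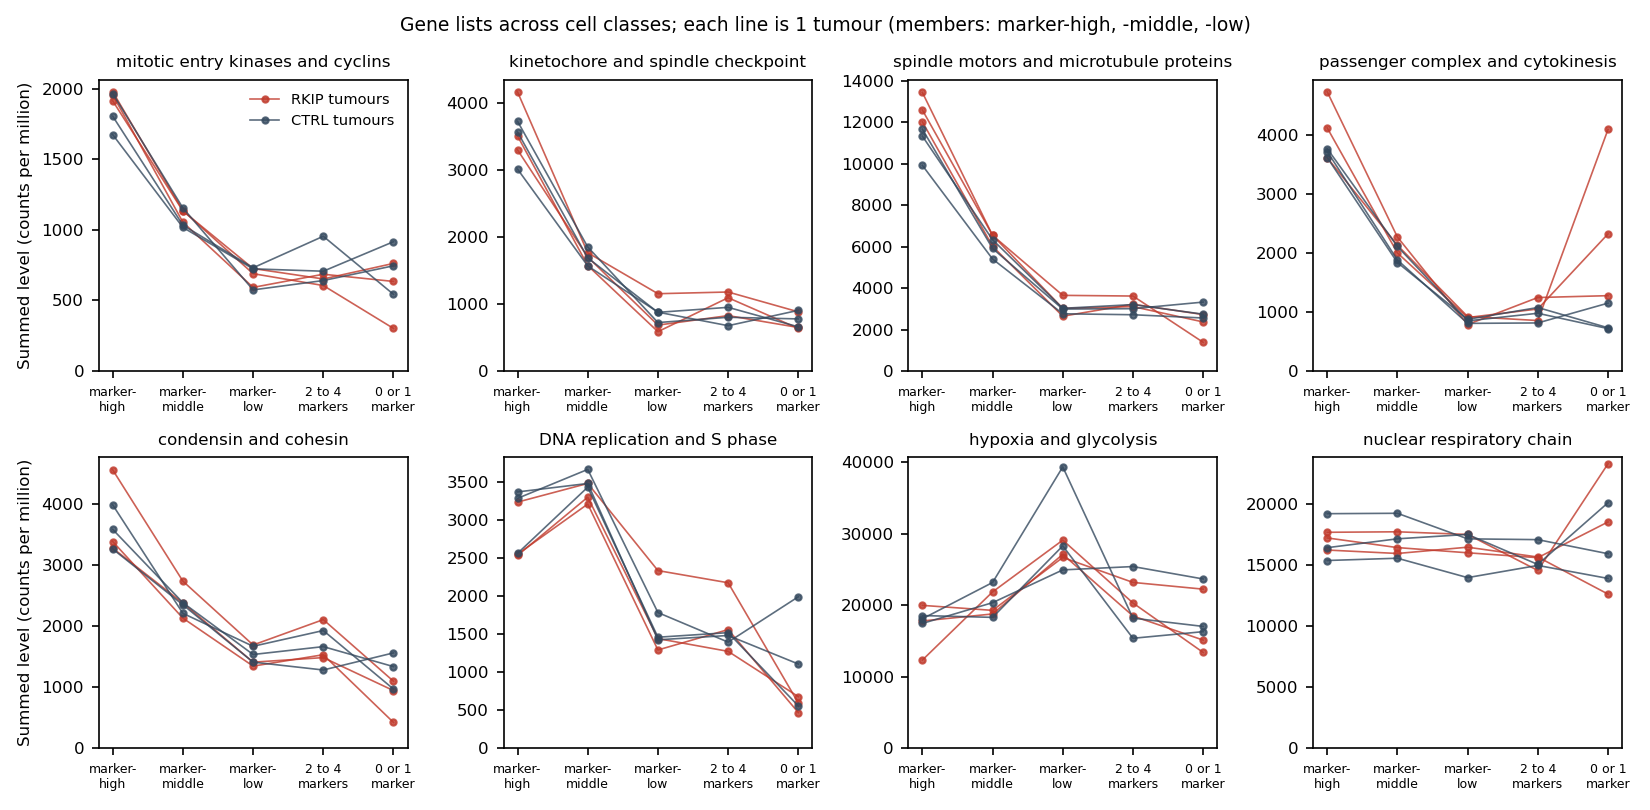
Summed level of 8 gene lists (CPM) in marker-high, marker-middle and marker-low members, in cells with 2 to 4 markers and in cells with at most 1; each line is 1 tumour. The 4 mitotic lists and condensin decline from the marker-high to the marker-low members; beyond it the passenger list is high again in the cells with at most 1 marker of 2 RKIP tumours, which hold 1 to 6 such cells each. The S phase list is highest in marker-middle members, and the hypoxia list is higher in marker-low members than in the other members. A large part of the hypoxia sum is ENO1.

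Marker-low members resembled non-members in mitotic genes. The kinetochore list summed to a median over tumours of 3533 CPM in marker-high members, 1693 in marker-middle members and 799 in marker-low members, and 888 in cells with 2 to 4 markers. CDK1 had medians of 173, 56.3 and 6.97 CPM in the 3 classes of members and 8.95 CPM in cells with 2 to 4 markers. Genes of DNA replication took another course, with their highest sum in marker-middle members in 6 of 6 tumours. That sum was 2537 to 3371 CPM in marker-high members, 3212 to 3667 CPM in marker-middle members and 1293 to 2337 CPM in marker-low members, and CCNE2, the cyclin of S phase entry, had medians of 48.9, 78.2 and 15.1 CPM. These sums were not tested.

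Between the classes, 7 of 40 replication genes were higher, led by RRM2, the ribonucleotide reductase subunit made in S phase and G2, with 70.4 to 100.4 CPM in marker-high members and 2.55 to 14.2 CPM in marker-low members (4.002 ± 0.39 (SE), adjusted p = 2.25e-04 by edgeR). The others named were RFC3, RFC5, MCM10, CLSPN and RRM1, at 1.37 to 2.41 on the log2 scale. With thinned cells 10 of 32 passed, but in the depth window only 1 of 34 did, RRM2, and in CTRL tumours alone 0 of 40. MCM10 was at 1.25 (adjusted p = 0.609) in the window, and the calls of RFC3, RFC5, MCM10 and CLSPN were lost without some single tumours (CTRL A, CTRL C, RKIP A, RKIP B or RKIP C). PCNA, the sliding clamp, had 47.6 ± 23.8 CPM in marker-high members and 31.5 ± 23.4 CPM in marker-low members and MCM4, of the replicative helicase, 93.9 ± 22.1 CPM in marker-high members and 79.2 ± 58.2 CPM in marker-low members, and neither passed (adjusted p = 0.591 and 0.594). Histones and their chaperones were higher for 14 of 21. HIST1H4C had 5325 to 12842 CPM in marker-high members and 1113 to 1838 CPM in marker-low members (2.54 ± 0.17 (SE)). HJURP, the chaperone of CENPA, was higher by 4.23, and the chromatin protein HMGB2 by 2.77. In the depth window 7 of 20 genes of the list passed. Histone genes are near-identical copies, so reads of HIST1H4C and HIST1H2AG may be shared with other copies.

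Of the transcription factors of the cell cycle, 2 of 18 passed. FOXM1, the activator of G2 genes, had 77.6, 109 and 3.15 CPM in the RKIP tumours and 24.1, 0.788 and 28.7 CPM in the CTRL tumours in marker-high members, against 0.457, 1.58 and 2.89 CPM in the RKIP tumours and 2.14, 0 and 1.49 CPM in the CTRL tumours in marker-low members (4.42 ± 1.01 (SE), adjusted p = 0.0488). RKIP C and CTRL B were low in both classes, the classes overlapped, and the call was lost without a filter on low counts, in cells of 30000 to 120000 counts and without any 1 tumour other than RKIP C (adjusted p up to 0.158 without 1 tumour). E2F8 was higher by 2.84, but by 2.10 (adjusted p = 0.102) with thinned cells and 0.25 (adjusted p = 0.978) in the depth window, and its call was lost without any 1 tumour other than RKIP B. Of the others, MYBL2 (1.87, adjusted p = 0.0814) and E2F1 (0.41, adjusted p = 0.909) did not pass. Of the G1 list only CDKN3, a phosphatase of CDK1, passed (4.14 ± 0.27 (SE)). The levels of CCND1 and CDKN1A were 218 ± 31.004 and 134 ± 21.7 CPM in marker-high members and 253 ± 65.6 and 128 ± 67.8 CPM in marker-low members (SD, n = 6), and neither passed (adjusted p = 0.717 and 0.8).

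KMT5A, the enzyme that places the first methyl group on lysine 20 of histone H4 and is known to act in mitosis, had 85.5, 163 and 76.8 CPM in the RKIP tumours and 63.4, 78.1 and 45.4 CPM in the CTRL tumours in marker-high members. In marker-low members it had 25.2, 7.52 and 21.9 CPM in the RKIP tumours and 9.88, 79.1 and 11.7 CPM in the CTRL tumours. It was higher in 5 of 6 tumours, with CTRL B the exception. It did not pass (log2 fold change 2.08 ± 0.51 (SE), adjusted p = 0.0687). With cells thinned to 20000 counts the adjusted p was 0.0452, and in the depth window KMT5A was at 1.98 and did not pass (adjusted p = 0.255). Of 17 genes of the H4K20 and heterochromatin list only CBX1 passed (1.05), and not without CTRL C, RKIP A or RKIP C. KMT5B, which adds the second methyl group, had 58.5 ± 22.02 CPM in marker-high members and 93.8 ± 39.8 CPM in marker-low members and did not pass (adjusted p = 0.444). The RAF-MEK-ERK output list, the pathway that RKIP restrains, had a median of -0.057, with FOSL1 higher (1.15) and DUSP6 at -0.10 (adjusted p = 0.843). FOSL1 was at 0.38 (adjusted p = 0.787) in the depth window and lost its call without CTRL C, RKIP B or RKIP C.

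**Figure D3:**
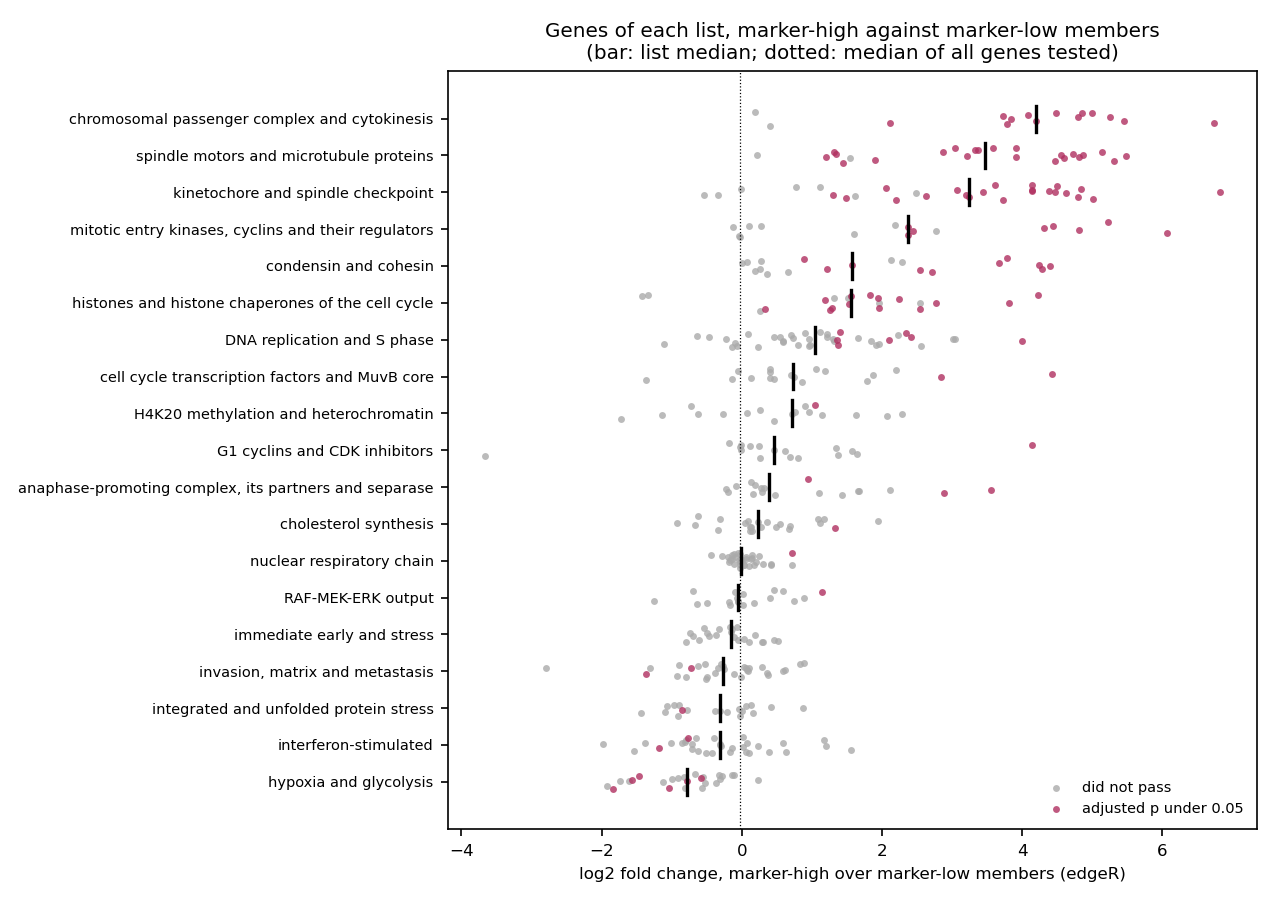
Log2 fold change of each tested gene, marker-high over marker-low members, by gene list; coloured points passed an adjusted p under 0.05, grey ones did not, bars are list medians and the dotted line is the median of all genes tested. The passenger, spindle and kinetochore lists lie furthest to the right, and the hypoxia list lies to the left.

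As background, many genes of G2 and mitosis carry a cell cycle genes homology region (CHR), bound by the MuvB complexes, and CCAAT boxes, bound by NF-Y. The 250 bases before the start of each gene, from RefSeq on GRCh38.p14, were searched on both strands for the CHR letters TTTGAA or TTCGAA and for CCAAT. Of the genes higher in marker-high members, 168 of 217 matched a promoter, of which 33.3% held CHR letters, 61.3% CCAAT and 27.98% both. Over 8356 promoters of genes tested the shares were 9.65%, 35.7% and 4.08%, and over all 27305 promoters 14.6%, 33.04% and 5.24%. Of the genes lower in marker-high members, 59 of 76 matched, and 8.47% held both. Of the 8 markers, 6 matched a promoter (not UBE2C and AURKA), of which 4 held CHR letters and 6 CCAAT. Letters in a window are a description and not shown to be bound, and no test was made of these shares.

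The 150 bases before the start are printed for 2 of the markers and 3 of the genes with large rises, chosen after the match because both motifs lie close together in them. Capitals mark CHR and CCAAT letters on either strand (ATTGG is CCAAT on the other strand), and all 5 genes lie on the plus strand. They are PLK1 at chr16:23678739-23678888, CDC20 at chr1:43358831-43358980, CCNB2 at chr15:59104996-59105145, CDCA8 at chr1:37692366-37692515 and KIF23 at chr15:69414199-69414348.
PLK1: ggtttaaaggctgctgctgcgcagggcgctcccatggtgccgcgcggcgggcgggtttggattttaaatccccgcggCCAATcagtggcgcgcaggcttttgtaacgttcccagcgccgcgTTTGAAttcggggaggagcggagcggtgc
CDC20: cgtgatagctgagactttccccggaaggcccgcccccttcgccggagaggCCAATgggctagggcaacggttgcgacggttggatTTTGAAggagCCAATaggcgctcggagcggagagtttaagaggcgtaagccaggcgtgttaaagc
CCNB2: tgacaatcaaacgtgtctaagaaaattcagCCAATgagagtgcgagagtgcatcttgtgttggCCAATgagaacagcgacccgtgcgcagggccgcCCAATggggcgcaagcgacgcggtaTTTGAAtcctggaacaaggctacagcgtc
CDCA8: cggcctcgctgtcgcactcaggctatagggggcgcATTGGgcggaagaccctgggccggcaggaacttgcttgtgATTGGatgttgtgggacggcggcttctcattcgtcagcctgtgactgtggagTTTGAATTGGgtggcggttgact
KIF23: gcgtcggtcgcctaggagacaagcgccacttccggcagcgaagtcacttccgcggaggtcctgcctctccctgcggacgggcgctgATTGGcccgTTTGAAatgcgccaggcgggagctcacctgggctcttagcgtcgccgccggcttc
The CHR letters begin 29 bases before the start in PLK1 and CCNB2, 65 in CDC20, 23 in CDCA8 and 55 in KIF23. CCNB2 has CCAAT 3 times, at 120, 87 and 54 bases before the start. In CDCA8 the CHR letters run into an ATTGG with which they share 1 base.

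Genes lower in marker-high members were fewer than those higher. Of 25 tested genes of hypoxia and glycolysis, 6 were lower and 0 higher, with a median log2 fold change of -0.78. NDRG1, induced by hypoxia, had 138, 103 and 192 CPM in the RKIP tumours and 157, 257 and 262 CPM in the CTRL tumours in marker-high members, against 446, 355 and 617 CPM in the RKIP tumours and 445, 716 and 649 CPM in the CTRL tumours in marker-low members (-1.57 ± 0.12 (SE), adjusted p = 2.75e-05 by edgeR). ANGPTL4, a secreted hypoxia target, had 40.1 to 161 CPM in marker-high members and 189.5 to 1083 CPM in marker-low members (-1.84 ± 0.22 (SE), adjusted p = 0.00106), with CTRL B the highest. The glycolytic enzymes PGK1 and ENO1 had log2 fold changes of -0.58 ± 0.092 (SE) and -1.04 ± 0.19 (SE), and ENO1 alone made up 9406 CPM in marker-high members and 19431 CPM in marker-low members. The last 2 were CA12, a carbonic anhydrase (-1.47), and the peptide hormone ADM (-0.78). In these 6 genes every marker-high value lay below every marker-low value. They were named because they had been called lower, so this describes them and adds no support to the calls.

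Marker-low members were the deeper class, so the decreases were set beside depth. The hypoxia list summed to a median of 17948 CPM in marker-high members, 19814 CPM in marker-middle members, 27698 CPM in marker-low members and 19401 CPM in cells with 2 to 4 markers. Marker-low members stood above these non-members in 5 of 6 tumours, with CTRL C the exception. ENO1, whose levels are given above, made up a large part of these sums, so the sums largely follow that gene. With cells thinned to 20000 counts, 5 of 22 hypoxia genes were lower, and with cells of 30000 to 120000 counts (146 in each class, 15 to 31 a tumour) 0 of 23 were. In that window NDRG1 was at -0.79 (adjusted p = 0.102) and PGK1 at -0.24 (adjusted p = 0.788) on the log2 scale. ENO1 was at -0.81 (adjusted p = 0.15) with thinned cells and -0.20 in the window. The call of ENO1 was also lost without CTRL A or CTRL B, and that of ADM without CTRL A or any 1 RKIP tumour. CDK1 stayed higher (3.21, adjusted p = 0.00746) and the spindle list held 15 of 23 genes higher. The window called 79 genes higher and 4 lower of 8670 tested, and thinned cells 228 higher and 98 lower of 7676. The part of depth in the decreases was not tested beyond these values.

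Other genes lower in marker-high members included the MYC antagonist MXI1 (-1.81 ± 0.34 (SE), adjusted p = 0.0186), YPEL3, a growth suppressor (-1.61), CREBRF (-1.54), HECTD3 (-1.46), FAM13A (-1.47), PCDH9 (-1.50) and the noncoding genes SFTA1P (-1.54) and MIR100HG (-1.38). YPEL3 had 14.3 to 45.3 CPM in marker-high members and 76.7 to 121 CPM in marker-low members, with no overlap. With cells thinned to 20000 counts MXI1, YPEL3, CREBRF, HECTD3 and PCDH9 did not pass (adjusted p = 0.0503, 0.0548, 0.199, 0.0578 and 0.114), and in the depth window none of these 8 genes did, with FAM13A at -0.19. CREBRF and HECTD3 lost their calls without any 1 tumour, and of the 8 only MIR100HG kept its call without each tumour in turn. IGFBP3, which binds insulin-like growth factors, had 71.05 to 231 and 190.0 to 637 CPM (-1.52 ± 0.29 (SE)). The protease inhibitors TIMP3 and TIMP1 were also lower (log2 fold changes -1.37 and -0.73). They were 2 of 30 tested genes of invasion and matrix. Of 33 interferon-stimulated genes 2 were lower, ISG15 (-1.18) and IFITM3, a membrane protein of antiviral defence, which had 2373, 2158 and 2790.2 CPM in the RKIP tumours and 2445, 1798 and 2257 CPM in the CTRL tumours in marker-high members, against 4623, 4021 and 3659.9 CPM in the RKIP tumours and 3743, 3754 and 3612 CPM in the CTRL tumours in marker-low members. Of these genes, only IFITM3 passed in the depth window (-0.84, adjusted p = 0.0191). IGFBP3, TIMP3, TIMP1 and ISG15 did not (adjusted p = 0.0671, 0.635, 0.243 and 0.184), and the call of TIMP1 was lost without any 1 tumour other than CTRL B and that of IGFBP3 without CTRL A, RKIP B or RKIP C. The endoplasmic reticulum chaperone HSPA5 was lower (-0.86), as 1 of 19 genes of the stress list, and 0 of 22 immediate early genes passed. HSPA5 was not called in the depth window (adjusted p = 0.358) or without CTRL A, RKIP A or RKIP C. The nuclear respiratory chain list had a median of -0.013, with COX8A higher (0.72; adjusted p = 0.288 in the depth window).

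**Figure D4:**
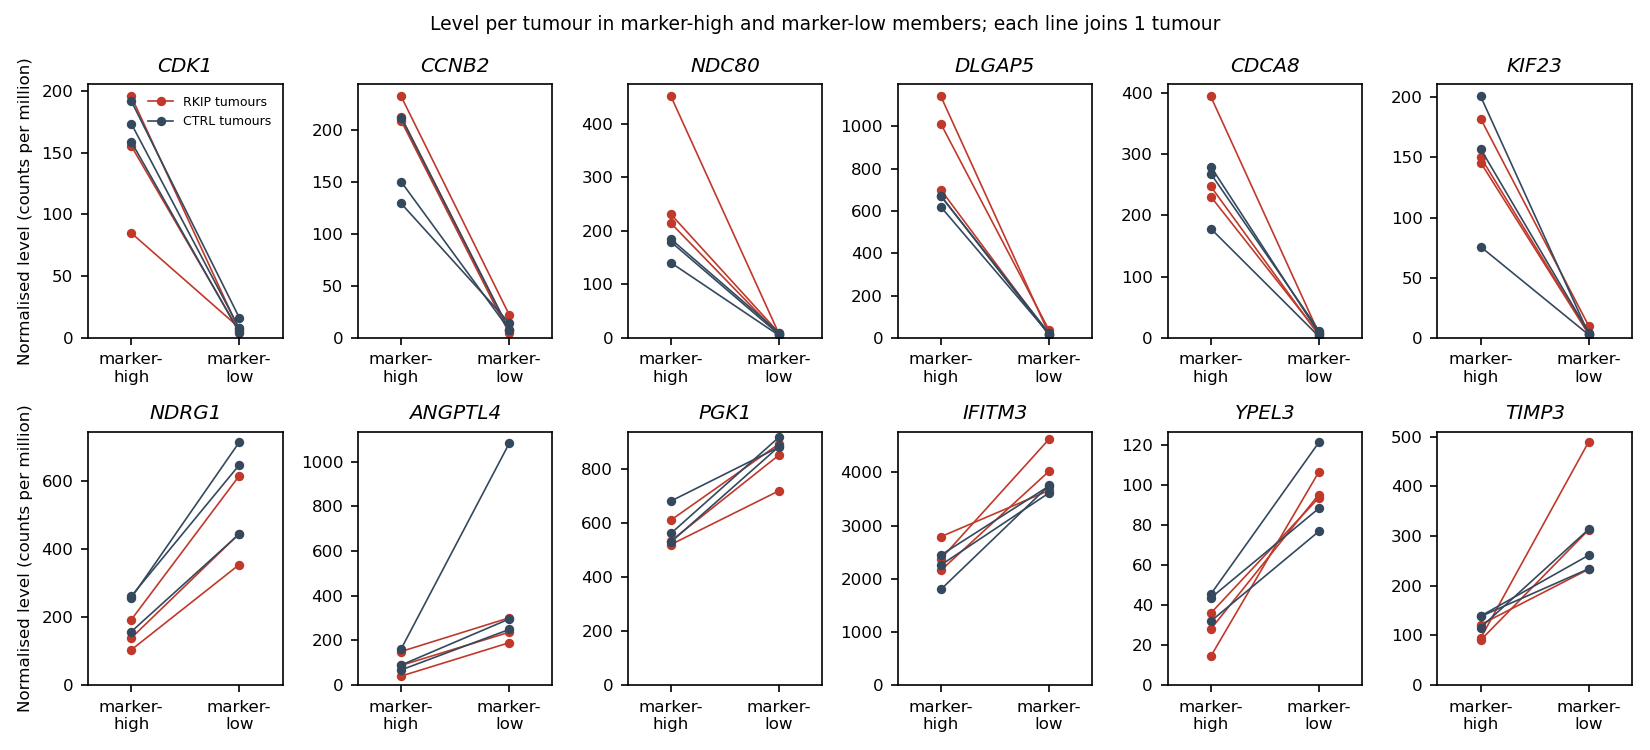
Normalised level (CPM) of 12 genes in marker-high and marker-low members; each line joins the classes of 1 tumour. The 6 mitotic genes are near 0 in marker-low members of every tumour, and the 6 genes of the lower panels are higher there in every tumour.

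The share of members among cells with at least 2000 genes was 83.8%, 75.5% and 73.6% in RKIP tumours A, B and C and 78.7%, 62.4% and 74.9% in CTRL tumours A, B and C. The arms overlapped, with CTRL B the lowest. The means were 77.7% ± 5.42 in RKIP tumours and 72.003% ± 8.49 in CTRL tumours (SD, n = 3 each), a difference of 5.65 percentage points (exact two-sided permutation p = 0.5; the smallest p this design allows is 0.1). RKIP was higher in 2 of 3 replicate experiments (exact sign-flip permutation p = 0.5, of a smallest 0.25). Without CTRL B the difference was 0.868 points, and without RKIP A it was 2.57 points. In cells thinned to 20000 counts the shares were 53.2%, 51.5% and 54.1% in RKIP tumours and 53.9%, 51.9% and 56.4% in CTRL tumours, a difference of -1.11 points (exact permutation p = 0.5), with RKIP higher in 0 of 3 replicate experiments and 135 to 255 cells a tumour left by the thinning and the gene minimum. The sign of the thinned difference depended on the setting, and neither difference passed the exact test.

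**Figure D5:**
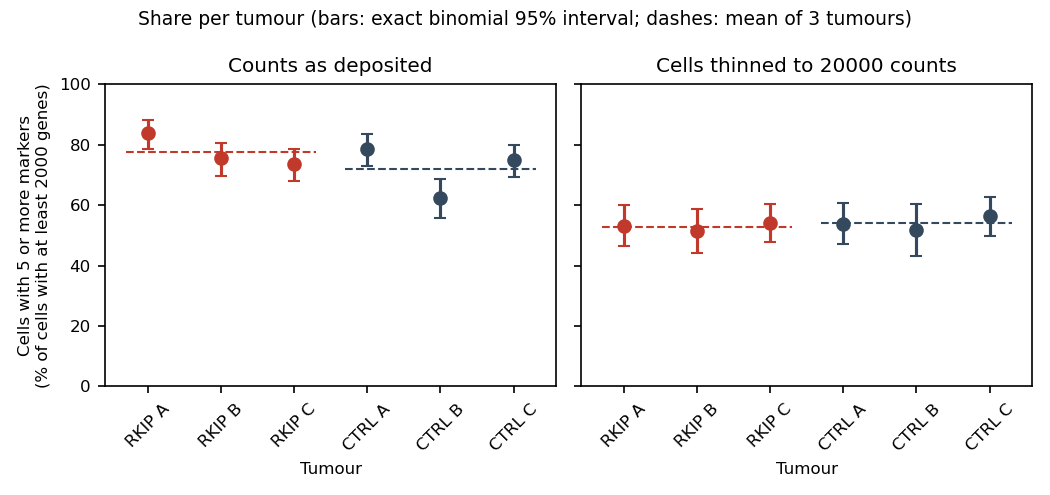
Share of cells with 5 or more of the 8 markers among cells with at least 2000 genes, per tumour, at the deposited depth and after thinning to 20000 counts; bars are exact binomial 95% intervals, which cover counting error only, and dashed lines are means of 3 tumours. The 6 tumours lie between 62.4% and 83.8% at their own depth and between 51.5% and 56.4% after thinning.

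In members, the transgene was the 1 of 14328 genes called between RKIP and CTRL tumours by edgeR with the replicate block (0.00698% of the genes tested; 509 genes at an unadjusted p under 0.05). The row of rat Pebp1, ratpebp1, had 128, 14.2 and 220.2 CPM in RKIP tumours A, B and C and 0.249, 0 and 0.464 CPM in CTRL tumours A, B and C (log2 fold change 9.002 ± 0.38, adjusted p = 0.00285). RKIP B was the lowest of its arm, and the arms did not overlap. A count of ratpebp1 was seen in 63.9%, 10.3% and 47.8% of members in RKIP tumours A, B and C. In CTRL tumours the share was 3.19% and 3.55% in tumours A and C and 0 of 138 members in tumour B, which allows up to 2.17%. The call was lost without the block, and without CTRL A, CTRL C, RKIP A or RKIP C. With the block, leaving out a tumour also takes the other tumour of its ending out of the comparison of arms. Leaving out CTRL A and RKIP A is thus nearly the same check, as is leaving out CTRL C and RKIP C. Human PEBP1 had 280.0, 273 and 276 CPM in RKIP tumours A, B and C and 293, 384 and 295 CPM in CTRL tumours A, B and C (log2 fold change -0.22, adjusted p = 0.984).

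The transgene was then set beside the marker level within members. In the RKIP tumours marker-high members had ratpebp1 counts in 60%, 10.9% and 52% of cells, and marker-low members in 70%, 10.9% and 44%. Between these classes the log2 fold change over all tumours was 0.002 ± 0.33 (adjusted p = 0.999 by edgeR), and that of PEBP1 was -0.16 ± 0.12 (adjusted p = 0.651). BACH1, a transcription factor of metastasis placed downstream of RKIP, had 120.1 ± 56.2 CPM in marker-high members and 153.5 ± 71.2 CPM in marker-low members and did not pass (adjusted p = 0.587).

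In marker-high members alone, 0 of 11401 genes were called between RKIP and CTRL tumours by edgeR (0% of the genes tested), with 394 at an unadjusted p under 0.05 and 32 called by DESeq2. Without CTRL A, and likewise without RKIP A, which is nearly the same check under the block, 5 genes were called. The lowest p after ratpebp1 (adjusted p = 0.0643) belonged to PRSS2, a trypsinogen, with 20.4, 26.1 and 17.1 CPM in RKIP tumours A, B and C and 209, 135 and 355 CPM in CTRL tumours A, B and C (log2 fold change -3.36 ± 0.45, adjusted p = 0.999). SELENBP1, a selenium-binding protein, came next with 0.302, 0.267 and 0.975 CPM in RKIP tumours A, B and C and 9.099, 19.7 and 44.5 CPM in CTRL tumours A, B and C (adjusted p = 0.999). The mitotic genes did not pass: in marker-high members CDK1 had 85.3, 156 and 197 CPM in RKIP tumours A, B and C and 159.9, 192 and 175 CPM in CTRL tumours A, B and C. CCNB2 had 214, 233 and 211 CPM in RKIP tumours A, B and C and 213, 150.4 and 130.0 CPM in CTRL tumours A, B and C (adjusted p = 0.999 for both). KMT5A had 85.7, 163 and 77.3 CPM in RKIP tumours A, B and C and 63.7, 78.05 and 45.6 CPM in CTRL tumours A, B and C, and its difference did not pass either (adjusted p = 0.999). KMT5C, the enzyme of H4K20 trimethylation, was near the floor in all members, at 1.76 ± 1.04 CPM in RKIP tumours and 1.34 ± 1.31 CPM in CTRL tumours (SD, n = 3 each).

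Whether the cell classes differed by another amount in RKIP than in CTRL tumours was tested with interaction terms. For members against cells with at most 1 marker, 0 of 11232 genes passed by edgeR (0% of the genes tested), with 269 at an unadjusted p under 0.05, 1 by DESeq2 and 4 in the depth window. The lowest p-values belonged to MSN, H1F0 and BRD2 (adjusted p = 0.419, 1 and 1). For marker-high against marker-low members, 0 of 11355 genes passed by edgeR (0% of the genes tested), with 358 at an unadjusted p under 0.05 and 15 by DESeq2. PRSS2 and KDELR2 were among the genes of lowest p, both at an adjusted p of 0.999. With 3 tumours an arm, a p that misses the threshold does not show that the arms are alike.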

How the data were processed

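RNA of 1569 single cells from 3 RKIP and 3 CTRL tumours was analysed; the bulk tumours of the series were not used here. The deposited table holds raw counts of genes in cells, not normalized, as its values show. Per the submitters' processing notes, reads were handled with Trim Galore, STAR and featureCounts, with the builds hg38 and hg19; versions, the role of each build, strand and molecular identifiers are not given in the sources used here. Coordinates are given only for RefSeq promoters, on their own build, and intervals cover counting error only. The members and gene lists were chosen with earlier results of these data known.

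The start of a cell's name gave its arm and the ending its tumour. The 87 cells with under 2000 detected genes were left out, and no doublet caller was run. Counts were summed per tumour and class, the 8 markers were left out of the genes tested, and edgeR 4.0.16 (R 4.3.3; filterByExpr, TMM, robust quasi-likelihood F test, Benjamini-Hochberg, threshold 0.05) was used with the tumour as block between classes and the replicate experiment as block between arms. DESeq2 1.42.0 was an alternative. The fitting steps were also run on simulated counts with the same spread for every gene and no differences between tumours. That setting is simpler than the data, so it does not measure false calls in them. CPM of single genes are TMM-scaled, and sums over lists and the marker levels are plain counts per 1000000 counts. Standard errors come from the F statistic. Shares were compared over tumours by exact permutation (SciPy 1.17.1). Thinning drew 20000 counts a cell without replacement (seed 1).

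Named genes were the 12 largest rises and decreases among called genes (average log2 CPM 5 or more, 1 direction in all 6 tumours), up to 6 called members and the core members of each list, and in comparisons of arms the called genes or the 3 of lowest p. The same rule was carried over to the comparison of marker-high and marker-low members. The block rests on the labels, which put 1 tumour of each arm in each replicate experiment. The correlations of deviations between tumours of one ending were 0.00359, 0.0441 and -0.0474, all under 0.1. Between tumours of different endings they ran from -0.0536 to 0.0711, so they do not single out the pairs by ending. Depth did match by ending: the median counts of members were 94113, 120556 and 73543 in RKIP tumours A, B and C and 87696, 128792 and 69849 in CTRL tumours A, B and C. The labels do not give which replicate number each ending is. Tumours are the replicates. With the blocks, edgeR p-values between marker-high and marker-low members rest on how the class difference varies between tumours, with part of the spread shared between genes. Those between arms rest in the same way on how the arm difference varies between replicate experiments. For members against cells with at most 1 marker, and its interaction with arm, they follow a spread pooled over genes. A gene's own variation between tumours hardly enters there, so a small p does not measure agreement between tumours. Alternatives were size factors, DESeq2, filters, thinning, a depth window, other marker thresholds, no block and leaving out tumours.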

Additional observations from a re-analysis of the deposited data

How the results depend on the processing

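The comparison of members with cells with at most 1 marker moved with nearly every setting, from 304 genes to 31 with RLE size factors (27 higher, 4 lower), 121 without a filter on low counts, 149 with cells thinned to 20000 counts (22 of them lower), 8 in cells of 30000 to 120000 counts, 154 with the gene minimum for members only, 3 against cells with 0 markers (2 tumours had such cells), 57 against cells with 2 to 4 markers, 8 in CTRL tumours only and 5 in RKIP tumours only; it was 817 with no replicate block and 12 to 26 when each tumour was left out. Under DESeq2 it was 324 (132 shared with the 304, against 59 with thinned cells), and with at least 6 or at least 4 markers 286 and 324 (262 and 299 shared). Marker-high against marker-low members gave 293 calls with either size factor, 909 with DESeq2 (283 of the 293 among them), 83 in cells of 30000 to 120000 counts (79 shared), 326 with thinned cells (231 shared), 289 with no replicate block (225 shared; the calls of CDC25C, MAD2L1, CDC27, E2F8, CLSPN, CREBRF, PCDH9, FAM13A and HECTD3 were among those lost), 50 in CTRL tumours only, 73 in RKIP tumours only and 176 to 261 when each tumour was left out, with 154 to 209 higher and 22 to 54 lower. Counts between RKIP and CTRL tumours in members were 45 with DESeq2, 0 with no replicate block and 0 to 1 when each tumour was left out; in marker-high members they were 32 with DESeq2, 1 without a filter on low counts and 0 to 5 when each tumour was left out. Interactions gave 1 gene with DESeq2, 4 in the depth window and 0 to 1 when each tumour was left out for members, and 15 with DESeq2 and 0 to 0 when each tumour was left out for marker-high against marker-low members. The thinned difference in member share, -1.11 points, turned to 1.78 with at least 6 markers, 1.65 with at least 4 markers, 3.14 with no gene minimum and 5.58 with cells thinned to 40000 counts, and ranged from -2.22 to 0.0683 when each tumour was left out; the difference at own depth ranged from 0.868 to 8.98. Genes that changed sign between the classes had not passed in any of these settings: WEE1 (0.032 with no replicate block, 0.013 in the depth window, -0.22 to 0.073 when each tumour was left out), E2F1 (-0.92 in RKIP tumours only, -0.060 to 0.96 when each tumour was left out), TYMS (-1.09 to 0.31 when each tumour was left out), CCND1 (0.0058 thinned, 0.17 in the depth window), CDKN1A (-0.11 in RKIP tumours only), DUSP6 (0.074 in the depth window, -0.19 to 0.018 when each tumour was left out), BACH1 (0.10 in the depth window) and ratpebp1 (-0.019 without a filter, -0.11 to -0.012 when each CTRL tumour was left out, -0.14 in RKIP tumours only). Without an RKIP tumour ratpebp1 was too low to be tested. The cause of these moves was not tested. The interactions were not run without the block, and against cells with 0 markers, present in 2 tumours, the fit leaves no residual degrees of freedom.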
